A study of Mus musculus with 24 samples.

Results

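The late phase of the response to RMC-6272 was examined by comparing liver tumours collected 72 h after the second dose with tumours collected 48 h after it. The comparison comprised the 3 libraries titled for 72 h and the 3 titled for 48 h, which are 6 of the 24 libraries in the series, and no measured value was used to choose them. All 6 came from FVB/N mice of the Lap-tTA/Tet-O-MYC model. In this model the Lap promoter, active in hepatocytes, drives the tetracycline transactivator, which turns on a human MYC transgene when doxycycline is absent. Doxycycline was withdrawn 4 weeks after birth, and after another 4 to 5 weeks tumour volumes were followed by magnetic resonance imaging. The transgene was therefore on in both groups. Both groups received RMC-6272 weekly at 10 mg/kg by intraperitoneal injection, with the second dose 7 days after the first. The treatment labels therefore separate them by hour of collection alone, while their description codes, treated below, also differ in part. Vehicle was collected at 24 h (3 libraries), and a further 3 RMC-6272 libraries were collected at 24 h. Both are given below as levels only, since no vehicle library at 48 or 72 h was analysed here. Total RNA came from frozen pieces of tumour, so a library can also hold RNA of vessels, blood and adjacent liver. The labels do not say whether replicates are separate animals or separate tumours, so p-values measure only the spread between samples. The fit estimates that spread over all 24 libraries of the series.

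RMC-6272 belongs to the bi-steric inhibitors of mTOR complex 1. This kinase complex promotes cap-dependent translation by phosphorylating the repressor 4EBP1, promotes the making of ribosomes and nucleotides, and holds autophagy back. MYC drives many of the same growth programmes by transcription. Differentiated hepatocytes secrete most plasma proteins, detoxify ammonia and drugs and make bile acids, and in inflammation they secrete acute phase proteins under cytokines such as IL-6, acting through STAT3, C/EBP and NF-kB.

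The 3 libraries at 48 h held 35.0, 37.8 and 38.5 M reads, and those at 72 h held 31.8, 31.0 and 17.6 M, as recovered from the steps between low values. The tissue label was met by hepatocyte markers. The summed FPKM (fragments per kilobase of gene length, scaled to the reads of the library) of 10 such markers, among them Alb and Ttr, was 11390, 6275 and 12300 at 48 h, and 23600, 20550 and 7654 at 72 h, and none of the 10 was under an FPKM of 0.1 in all 6 libraries. Replicate 3 at 72 h, the shallowest library, stood apart. Globins made up 6.24% of its FPKM, against 0.00305 to 0.294% in the other 5. Summed neutrophil markers, 24 of them in the table, reached 3668 FPKM in it, against 22.3 to 111, and 18 endothelial markers reached 589, against 68.3 to 163. Its Pearson correlation with the other 5 libraries across genes was 0.837 to 0.890, where those 5 correlated with each other at 0.886 to 0.958. List counts, list medians and the log2 differences of single genes are therefore also given without it. The description codes of replicate 3 at 48 h and replicate 1 at 72 h begin alike, and no other pair across the groups does. What the code means is not stated, and the difference between these libraries is given as a value within 1 code.

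None of 12560 genes tested (0%) passed an adjusted p of 0.05 between 72 and 48 h (limma on log2(FPKM + 1), Benjamini-Hochberg; smallest adjusted p 0.0738). At an unadjusted p under 0.05, 953 genes were higher at 72 h, 7.59% of those tested, and 846 were lower, 6.74%. All 3 libraries at 72 h lay above all 3 at 48 h in 875 genes, which is 6.97%, and below them in 1187, which is 9.45%. After quantile normalization these counts were 591 above and 1638 below, with 812 higher and 1323 lower at an unadjusted p under 0.05, so the balance of directions rests on the scaling. Without replicate 3 at 72 h, the unnamed gene model Gm23977, given here after its values were seen, alone passed, 0.00796% of the genes tested, and 879 genes were higher and 425 lower at an unadjusted p under 0.05, or 760 and 766 after quantile normalization. The remaining 2 libraries at 72 h lay above those at 48 h in 1760 genes, 14.0%, and below in 1714, 13.6%. These shares are the background for every count of gene list members below. The lists give median differences on the log2(FPKM + 1) scale, and the median over all genes tested was 0.00 with all libraries and -0.01 without replicate 3 at 72 h.

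**Figure D1:**
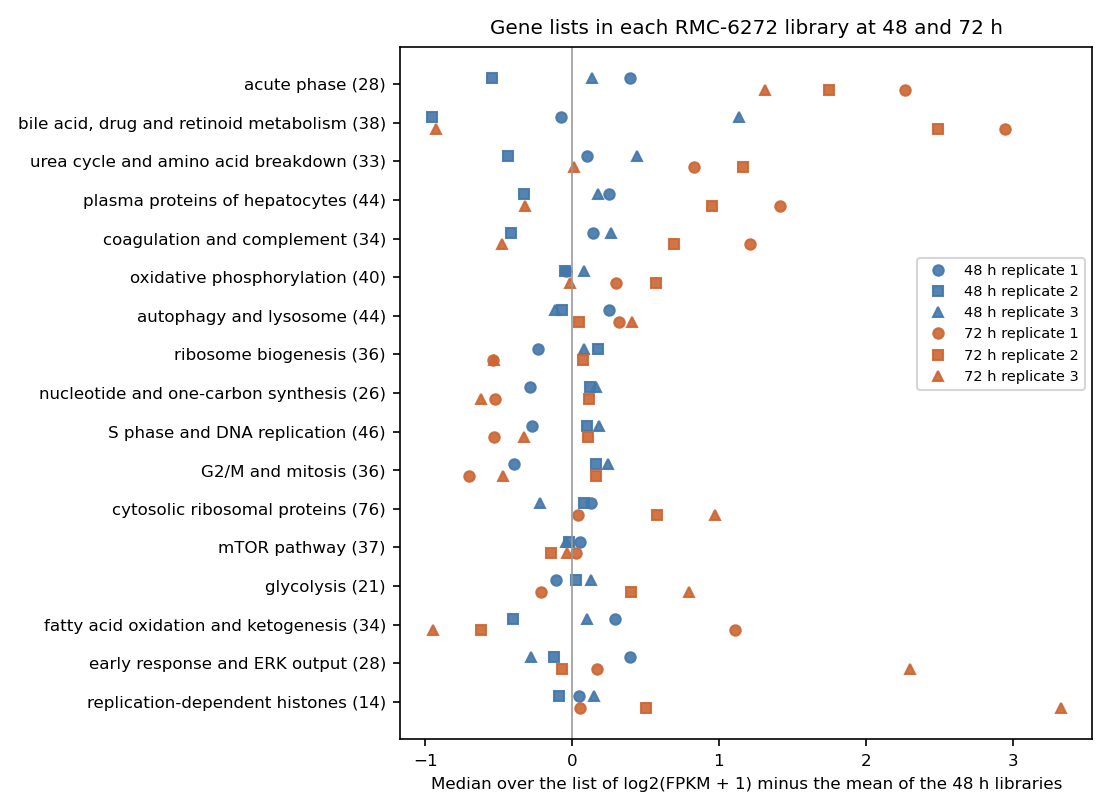
Each point is the median, over the tested members of a gene list (their number in brackets), of log2(FPKM + 1) in a library minus the mean of the 3 libraries at 48 h; blue is 48 h, orange is 72 h and the shape is the replicate. The acute phase list has all 3 points at 72 h (2.26, 1.75 and 1.31) to the right of all 3 at 48 h, whereas bile acid and drug metabolism has replicate 3 at 72 h at -0.92, away from 2.95 and 2.49.

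Acute phase genes stood higher at 72 h than at 48 h in each of the 3 libraries at 72 h. Of its 29 listed members 28 were tested, and in 11 of them all 72 h libraries lay above all 48 h libraries, against 6.97% of all genes, while none lay below. The 11 include Saa1 and Saa2, which were under 1 FPKM in every 48 h library and passed the filter through 72 h alone. Single genes named in this and later paragraphs were mostly taken for a small p or for lack of overlap, so their separation is a description. No member passed the adjusted threshold, and 18 had an unadjusted p under 0.05 in the upward direction, against 7.59% of all genes. Without replicate 3 at 72 h 18 members lay above the 48 h libraries, against 14.0% of all genes. The median difference was 1.91 over the 28 genes, and 1.79 without replicate 3 at 72 h. Within the code shared by replicate 3 at 48 h and replicate 1 at 72 h it was 1.63. Relative to 48 h, the list stood at 1.35 in the RMC-6272 libraries at 24 h and at -0.44 in vehicle. By library it stood at 0.39, -0.54 and 0.14 at 48 h, so vehicle lay within the spread of 48 h. The 24 h libraries varied widely in single members, such as Saa1 with 61.8 ± 79.1 FPKM (SD, n = 3). The sum of hepatocyte markers was above every 48 h library in replicates 1 and 2 at 72 h and not in replicate 3. The sum of neutrophil markers was above every 48 h library in all 3, at 111, 83.1 and 3668 against 22.3 to 60.2 FPKM. That sum holds Lcn2, which is also a member of the acute phase list, so it does not measure neutrophils apart from this list. Of 7 neutrophil markers tested, 2 lay above in all 3 libraries, S100a8 and S100a9. In replicate 2 at 72 h they had 4.65 and 6.24 FPKM, barely above the highest 48 h values of 4.36 and 5.80. The part of either cell type in the acute phase list was not tested, and in bulk tissue fewer cells of a type and less RNA per cell cannot be told apart.

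Orm1, which encodes orosomucoid 1, an acute phase carrier protein, was the most abundant of the genes described in this and the next paragraph. Its FPKM was 16.0, 2.63 and 7.18 at 48 h and 292, 226 and 205 at 72 h. The 3 libraries at 72 h were close to each other and the groups did not overlap. The difference was 4.91 on the log2 scale (SE 1.06) with an adjusted p of 0.128 (limma), and 5.02 without replicate 3. At 24 h the mean was 430.3 ± 596 FPKM (SD, n = 3), a spread wider than the mean, and in vehicle it was 28.4 ± 38.0 (SD, n = 3).

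Serum amyloid A genes, whose products ride on lipoproteins in inflammation, showed the same order at lower levels. Saa1 had an FPKM of 0.934, 0.128 and 0.535 at 48 h and 13.1, 17.2 and 26.7 at 72 h, with no overlap (log2 difference 3.68, SE 0.81, limma adjusted p 0.135; 3.42 without replicate 3). Saa2 had 0.284, 0.0735 and 0.196 at 48 h and 2.46, 11 and 34.1 at 72 h, again with no overlap, and its difference of 3.26 became 2.45 without replicate 3. Saa3, made outside the hepatocyte as well, differed from both: replicate 1 at 72 h had 0.699, inside the range of 0.355 to 1.12 at 48 h, and the other 72 h libraries had 6.35 and 23.3. Saa4, the constitutive member, had 6.30, 4.76 and 13.3 at 48 h and 42.3, 49.1 and 14.0 at 72 h, so its lowest library at 72 h was barely above its highest at 48 h. Saa1 and Saa2 are near-identical copies, as are the Orm genes and the Serpina3 genes, and how reads were split among such copies is uncertain.

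Orm2, a further orosomucoid gene, had 1.66, 1.19 and 0.369 at 48 h and 8.64, 4.2 and 8.2 at 72 h, with no overlap. Serpina3n, a secreted inhibitor of serine proteases, had 16.3, 2.27 and 25.4 at 48 h and 80.4, 47.0 and 232 at 72 h, where replicate 3 was the highest. Its difference was 3.08 (SE 0.93, limma adjusted p 0.208), and 2.45 without that library. Other members were high in replicates 1 and 2 at 72 h and not in replicate 3. Apcs, which encodes serum amyloid P, had 31.4, 26.8 and 51.3 at 48 h and 238, 120.2 and 43.9 at 72 h. Serpina3m had 5.93, 0.661 and 12.2 at 48 h and 153, 25.0 and 9.80 at 72 h. Hp, the haemoglobin scavenger haptoglobin, was chosen after its values were seen, and had 287, 24.0 and 444 at 48 h and 2745, 930.1 and 368 at 72 h. In these 3 genes the groups overlapped through replicate 3 at 72 h alone.

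**Figure D2:**
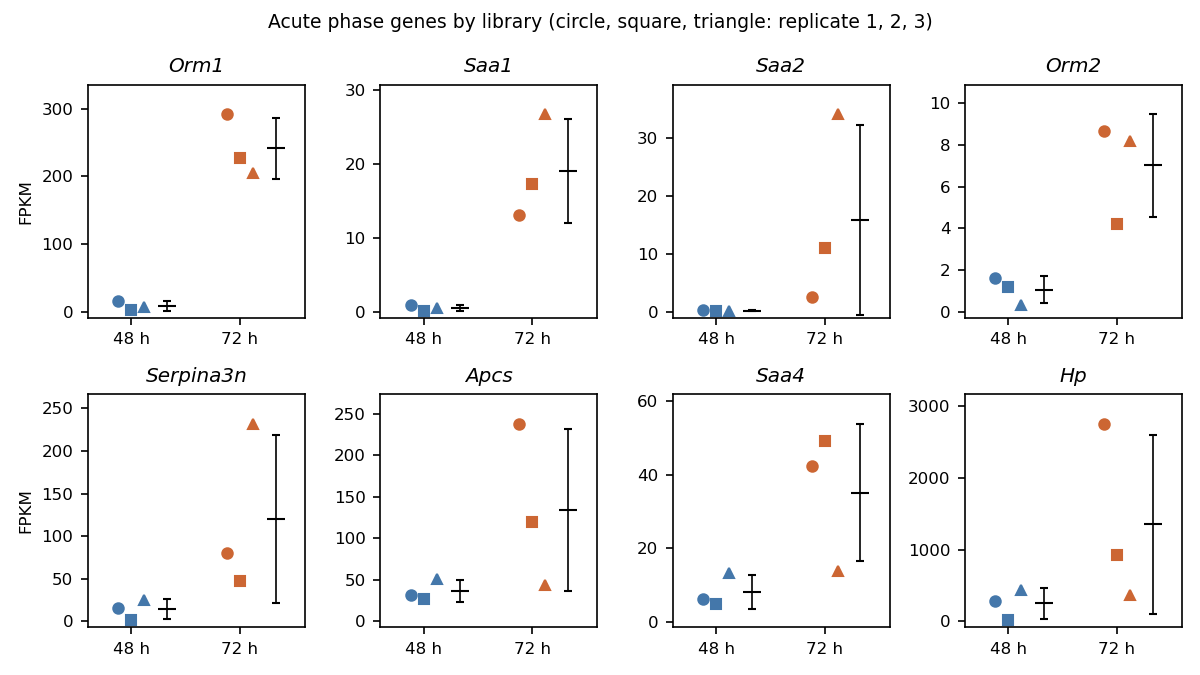
FPKM of 8 acute phase genes in each library at 48 h (blue) and 72 h (orange), with the mean and SD (n = 3) of each group beside the points. Orm1, Saa1, Saa2, Orm2 and Serpina3n have all points at 72 h above those at 48 h, while in Apcs and Hp replicate 3 at 72 h (triangle) falls among the 48 h points.

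The promoters of 4 acute phase genes without overlap between the times are shown, with matches to letter patterns marked. Each is the 250 bases before the gene start in RefSeq, build GRCm38.p6, which is newer than the mm9 build of the submitters' processing notes, written 5′ to 3′ on the gene's strand. Capitals mark matches on either strand to TTGNNNAA, a C/EBP-type pattern, in Saa1, Saa2 and Orm2, and to an NF-kB-type pattern (GGG, any pair of bases, TT, any base, CC) in Serpina3n.
Saa1, chr7:46742981-46743230, minus strand: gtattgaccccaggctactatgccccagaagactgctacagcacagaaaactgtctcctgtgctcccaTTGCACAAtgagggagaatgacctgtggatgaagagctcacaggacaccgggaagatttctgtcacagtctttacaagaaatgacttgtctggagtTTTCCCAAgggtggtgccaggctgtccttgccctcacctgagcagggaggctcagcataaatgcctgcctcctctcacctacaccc
Saa2, chr7:46751583-46751832, plus strand: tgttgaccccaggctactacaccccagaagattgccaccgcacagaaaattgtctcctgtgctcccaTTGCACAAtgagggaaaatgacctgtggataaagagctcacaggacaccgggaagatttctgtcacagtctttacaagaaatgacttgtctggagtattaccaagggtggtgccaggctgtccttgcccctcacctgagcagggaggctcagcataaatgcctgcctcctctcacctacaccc
Orm2, chr4:63362199-63362448, plus strand: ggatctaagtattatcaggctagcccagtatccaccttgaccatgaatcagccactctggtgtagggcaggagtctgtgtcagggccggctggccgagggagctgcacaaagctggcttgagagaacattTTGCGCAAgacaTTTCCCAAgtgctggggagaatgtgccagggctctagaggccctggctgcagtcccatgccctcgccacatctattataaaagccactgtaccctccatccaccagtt
Serpina3n, chr12:104406458-104406707, plus strand: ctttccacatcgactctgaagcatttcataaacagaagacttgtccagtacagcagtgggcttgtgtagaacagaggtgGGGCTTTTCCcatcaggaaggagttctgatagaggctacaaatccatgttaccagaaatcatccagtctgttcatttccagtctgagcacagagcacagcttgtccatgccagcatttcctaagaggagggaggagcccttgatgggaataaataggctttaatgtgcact

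Of the 28 acute phase genes tested, 21 had a promoter in RefSeq's table, and Orm1 was not among them. The C/EBP-type pattern occurred in 11 of the 21 (52.4%) and in 33.6% of 27025 promoters of the same length. A STAT-type pattern, TTCNNNGAA, occurred in 5 of the 21 (23.8%) and in 7.18% of all, and the NF-kB-type pattern in 2 (9.52%) and in 4.00% of all. None of the 4 promoters printed held the STAT-type pattern. These matches describe letters and not bound sites.

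Genes of bile acid, drug and retinoid metabolism were for the most part higher in replicates 1 and 2 at 72 h than in any library at 48 h, and were low in replicate 3. In this list (38 of 41 members tested) 1 gene lay above in all 3 libraries at 72 h, a share below the background of 6.97%. Without replicate 3 at 72 h 31 of 38 lay above, against 14.0% of all genes, and the median difference went from 1.54 to 2.75. Among them Cyp2c54, Aox3 and Abcb11 reached 1 FPKM at 48 h in replicate 3 alone, so they passed the filter through 72 h. By library the list stood at 2.95, 2.49 and -0.92 at 72 h, and at -0.08, -0.95 and 1.14 at 48 h, and within the shared code it was 1.73. The 2 libraries that were high here also had the highest sums of hepatocyte markers. These markers are liver genes of a like kind, Cyp2e1 and Tat among them, so their sum does not measure hepatocytes apart from such genes. The part of hepatocyte content was not tested. No gene of the list passed with or without replicate 3.

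Cyp27a1, which oxidises the sterol side chain in bile acid synthesis, was the member whose 3 libraries all lay above. It had an FPKM of 27.7, 24.2 and 20.2 at 72 h, above 11.1, 8.32 and 6.68 at 48 h (log2 difference 1.38, SE 0.45, limma adjusted p 0.220; 1.49 without replicate 3), and 15.5 ± 7.96 (SD, n = 3) at 24 h and 7.69 ± 5.24 (SD, n = 3) in vehicle. Gstt1, a glutathione transferase outside the lists, had a small p in the fit without replicate 3 and did not pass. Its FPKM was 41.7, 43.2 and 37.8 at 48 h and 89.7, 133 and 57.0 at 72 h, with a difference of 1.4 (SE 0.28, limma adjusted p 0.120) without replicate 3 and 1.09 with it. Its groups did not overlap. Gstm2, a further transferase, had 4.34, 2.05 and 3.66 and then 17.8, 13.7 and 4.56, where replicate 3 was barely above 48 h. Gstm1 had 134, 88.0 and 166 at 48 h and 394, 448 and 116 at 72 h, and overlapped through replicate 3.

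Genes of the adult liver's cytochrome and transporter set showed a wide gap between the 72 h libraries. Cyp1a2, an oxidase of drugs and caffeine, had 5.25, 0.709 and 8.49 at 48 h, 113 and 56.5 in replicates 1 and 2 at 72 h, and was listed at 0 in replicate 3. Cyp2c54, of the family of arachidonate and drug oxidases, had 0.404, 0.269 and 4.62 at 48 h and 17.7, 39.8 and 0.0962 at 72 h. Slc22a7, an organic anion transporter, had 0.585, 0.0755 and 4.86 at 48 h and 18.7, 21.6 and 0.0810 at 72 h. The log2 differences of these 3 genes were 2.01, 2.13 and 1.86 with all libraries and 4.12, 3.68 and 3.29 without replicate 3. Abcb11, the bile salt export pump, had 0.883, 0.262 and 3.73 at 48 h and 11.1, 10.1 and 2.34 at 72 h. Cyp2e1, the ethanol-oxidising cytochrome, had 31.6, 4.25 and 53 at 48 h and 501, 333 and 3.16 at 72 h. Aox3, an aldehyde oxidase, had 14.1 and 11.2 in replicates 1 and 2 at 72 h and was listed at 0 in replicate 3, beside 0.715, 0.162 and 4.28 at 48 h. Reads of the Cyp2c and Gstm copies may be shared within their families.

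**Figure D3:**
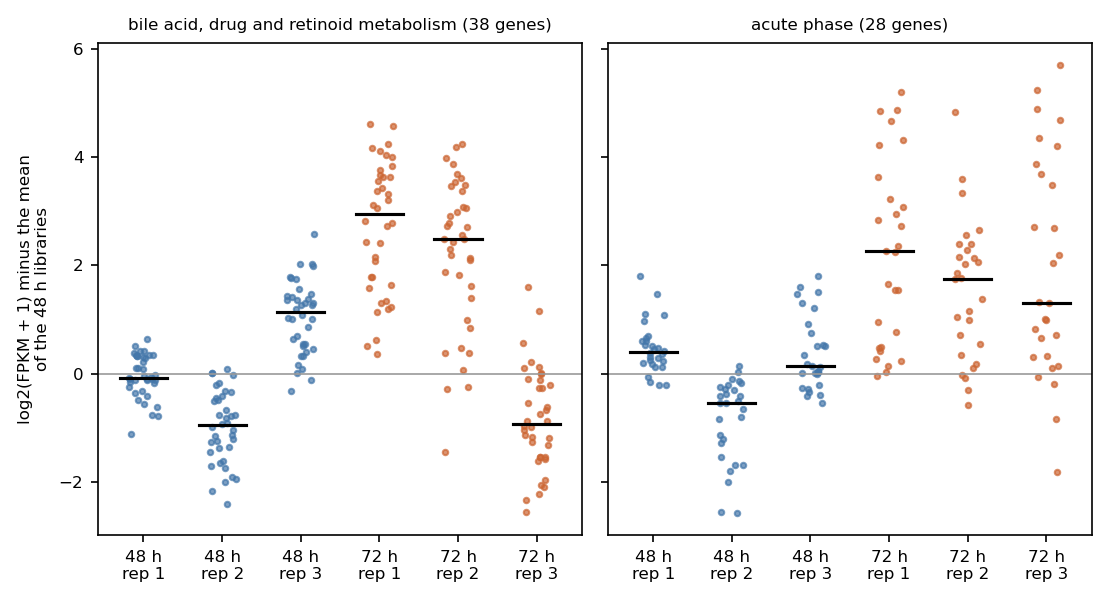
Each point is a gene's log2(FPKM + 1) in a library minus its mean over the 3 libraries at 48 h, for the 38 tested genes of bile acid, drug and retinoid metabolism (left) and the 28 of the acute phase (right); blue is 48 h, orange is 72 h, black bars are medians and sideways scatter is random. On the left the medians at 72 h are 2.95, 2.49 and -0.92, so replicate 3 lies below the mean of 48 h, and on the right they are 2.26, 1.75 and 1.31.

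Amino acid breakdown had a like split by library. Of 33 genes of the urea cycle and amino acid breakdown 8 lay above in all 3 libraries and 1 below, against backgrounds of 6.97 and 9.45%, with a median difference of 0.79. When replicate 3 at 72 h was left out, 22 lay above and 1 below, against 14.0 and 13.6% of all genes, and the median was 1.34. The gene below with all libraries was Gldc, of the glycine cleavage system, named after its values were seen. Within the shared code the list median was 0.73. Tat, the tyrosine aminotransferase, had an FPKM of 0.855, 0.187 and 4.31 at 48 h and 30.4, 48.4 and 5.76 at 72 h, so replicate 3 too lay just above the highest library at 48 h (log2 difference 3.27, SE 1.03, limma adjusted p 0.211; 4.12 without replicate 3). At 48 h Tat reached 1 FPKM in replicate 3 alone, so it passed the filter through 72 h. Hpd, the next enzyme of tyrosine breakdown, had 15.2, 4.16 and 20.8 at 48 h and 144, 227 and 32.3 at 72 h, again without overlap. Aass, which starts lysine breakdown, had 2.08, 0.665 and 2.85 and then 9.84, 11.3 and 3.27. In contrast Agxt, the peroxisomal enzyme that removes glyoxylate, had 9.12, 5.05 and 17.4 at 48 h and 73.1, 82.3 and 5.65 at 72 h, with overlap through replicate 3. Pck1, the entry enzyme of gluconeogenesis, had 33.2, 1.00 and 14.2 at 48 h and 299, 71.2 and 36.7 at 72 h, and did not overlap.

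Plasma protein genes were also higher in replicates 1 and 2 at 72 h. Of 44 such genes 6 lay above in all 3 libraries and none below, against 6.97 and 9.45% of all genes. Without replicate 3 at 72 h 32 lay above, against 14.0% of all genes. The median difference was 0.68, and 1.18 without replicate 3, and within the shared code it was 1.36. Serpina1a, an alpha-1 antitrypsin gene with close copies, had 149.6, 103 and 105 FPKM at 48 h and 341, 347 and 209 at 72 h (log2 difference 1.30, SE 0.34, limma adjusted p 0.190; 1.54 without replicate 3). Rbp4, the retinol carrier, had 572, 484 and 546 at 48 h and 1569.5, 1063 and 1263 at 72 h, and Fetub, a secreted protease inhibitor, had 22.1, 15.8 and 30.0 and then 176, 125 and 56.5. These 3 genes had no overlap between the times. Apoc3, an apolipoprotein of triglyceride-rich particles, had 56.6, 6.57 and 168 at 48 h and 1283, 1345 and 47.2 at 72 h. Alb overlapped in the same way, with 3441, 2284 and 6867 at 48 h and 10698, 8792 and 2063 at 72 h, beside 1669 ± 1079 (SD, n = 3) in vehicle. Of 34 tested genes of coagulation and complement 6 lay above in all 3 libraries and none below, against 6.97 and 9.45% of all genes. Without replicate 3 at 72 h 21 lay above, against 14.0%. The list median was 0.44, and 0.83 without replicate 3. Ang, which encodes the secreted ribonuclease angiogenin, lay among the genes of smallest p outside the lists: its FPKM was 2.19, 1.41 and 2.68 at 48 h and 23.7, 37.7 and 15.0 at 72 h (log2 difference 3.03, SE 0.73, limma adjusted p 0.173; 3.34 without replicate 3).

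Nuclear genes of oxidative phosphorylation differed by a small amount. Of 40 genes 14 lay above in all 3 libraries at 72 h, against 6.97% of all genes, and none below, but the median difference was 0.28 and changed sign to -0.06 after quantile normalization. With replicates 1 and 2 alone at 72 h 23 lay above, against 14.0% of all genes, with a median of 0.40. Cox6c, a subunit of cytochrome oxidase, had 51.2, 55.8 and 51.6 FPKM at 48 h and 72.9, 94.2 and 85.2 at 72 h (log2 difference 0.65, SE 0.27, limma adjusted p 0.283; 0.64 without replicate 3). Ndufs8, of complex I, had 96.7, 80.7 and 101 and then 120.0, 228 and 149. Ndufa1, also of complex I, had 83.1, 71.4 and 69.6 and then 114, 168 and 105. None of these genes overlapped between the times. The mitochondrially encoded oxidase subunit mt-Co3 had a wider range, with 27.7, 41.7 and 31.8 at 48 h and 55.1, 320 and 749 at 72 h, and its difference was 2.80, or 1.97 without replicate 3.

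Autophagy genes differed little. By library the list stood at 0.25, -0.07 and -0.11 at 48 h and at 0.32, 0.05 and 0.41 at 72 h, so the groups overlapped. Of 44 genes of autophagy and the lysosome 10 lay above in all 3 libraries, against 6.97% of all genes, and none below, with a median difference of 0.27. Leaving out replicate 3 at 72 h, 13 lay above, against 14.0% of all genes, and the median was 0.18. Map1lc3a, which encodes the LC3 protein of the autophagosome membrane, had 20.4, 12.3 and 17.1 FPKM at 48 h and 37.8, 28.6 and 56.4 at 72 h (log2 difference 1.23, SE 0.29, limma adjusted p 0.164; 0.98 without replicate 3). Gabarapl1, a related autophagosome protein, had 47.6, 24.9 and 32.9 and then 83.6, 54.4 and 68.5. Both genes had no overlap between the times, and both means at 24 h, 31.5 ± 12.1 and 62.3 ± 36.3 FPKM (SD, n = 3), lay nearer those at 72 h than at 48 h. Selenok, a selenoprotein of the endoplasmic reticulum, had 30.3, 27.7 and 30.9 at 48 h and 47.5, 81.5 and 93.9 at 72 h. Ube2h, a ubiquitin-conjugating enzyme, had 9.13, 7.06 and 9.25 and then 12.5, 13.6 and 19.2. Fbxo6, the part of a ubiquitin ligase that binds glycoproteins, had 9.67, 9.59 and 5.61 and then 19, 15.7 and 31.3. Each of these 3 genes had a limma adjusted p of 0.128, and their log2 differences were 1.24, 0.75 and 1.29, or 1.05, 0.57 and 1.01 without replicate 3.

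The lists of ribosome biogenesis and of nucleotide synthesis had medians somewhat below 0. The single genes named below were taken for a small p or for lack of overlap, so their separation is a description. Of 36 genes of ribosome biogenesis 5 lay below in all 3 libraries at 72 h, against 9.45% of all genes, and none above, with a median of -0.30. By library the list stood at -0.54, 0.07 and -0.53 at 72 h, so replicate 2 was at the level of 48 h. Of 26 genes of nucleotide and one-carbon synthesis 4 lay below, with a median of -0.34, and replicate 2 again stood apart at 0.11. Without replicate 3 at 72 h 5 and 4 genes lay below, against 13.6% of all genes, and these medians were -0.20 and -0.17, and within the shared code -0.63 and -0.67. Relative to 48 h the RMC-6272 libraries at 24 h stood at -0.47 and -0.66 on these lists and vehicle at 0.47 and 0.51, so the 48 h level lay between them.

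Dkc1, which encodes dyskerin, the pseudouridine synthase of ribosomal RNA and a telomerase component, had 25.0, 34.6 and 34.8 FPKM at 48 h and 18.2, 13.1 and 13.5 at 72 h. The groups did not overlap, the log2 difference was -1.03 (SE 0.22, limma adjusted p 0.128), and it was -0.97 without replicate 3. The mean was 17.8 ± 5.79 at 24 h and 40.4 ± 5.51 in vehicle (SD, n = 3), so the libraries at 72 h were near the level at 24 h. Tsr1, a factor that matures the small ribosomal subunit, had 9.49, 8.16 and 13.6 and then 6.31, 2.07 and 4.02. Rrp12, an exporter of ribosomal subunits, had 18.1, 20.6 and 19.8 and then 12.5, 13.7 and 11.1. Heatr3, outside the list, which helps to bring ribosomal proteins into the nucleus, had 17.8, 25.7 and 24.0 and then 14.2, 11.3 and 8.42. None of these genes overlapped between the times, although replicate 2 at 72 h stood at the 48 h level on the list. Ppat, the first enzyme of purine synthesis, had 13.8, 20.2 and 20.9 and then 10.3, 13.1 and 8.05, and Atic, which makes the last steps of that pathway, had 24.0, 32.3 and 38.5 and then 19.8, 20 and 12.8. Outside the lists, Iars, the isoleucyl-tRNA synthetase, had 23.2, 27.1 and 33.8 and then 18.1, 12.5 and 13.8, and Supt16, a histone chaperone of transcription and replication, had 12.6, 15.5 and 18.1 and then 9.52, 5.61 and 6.47. The other genes of the lists that lay below were Bop1 and Ftsj3, of large subunit processing, and Cad and Odc1, of pyrimidine and polyamine synthesis, named after their values were seen.

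Genes of the cell cycle showed a like split by library. Of 46 genes of S phase and DNA replication 6 lay below in all 3 libraries at 72 h and none above, with a median of -0.19, and of 36 genes of G2/M and mitosis 2 lay below, with a median of -0.31. Against the background of 9.45%, the first share is a little higher and the second lower. With replicates 1 and 2 alone at 72 h, 7 and 2 genes lay below, against 13.6% of all genes. In that comparison 1 S phase gene lay above, against 14.0%, and the medians were -0.16 and -0.25. The mitosis list stood at -0.70, 0.16 and -0.47 in the libraries at 72 h, and at -0.39, 0.16 and 0.24 at 48 h, so the groups overlapped. Mcm6, of the replicative helicase, had 41.9, 53.1 and 57.7 FPKM at 48 h and 28.4, 32.4 and 32.0 at 72 h, beside 23.4 ± 8.73 at 24 h and 68.5 ± 5.48 in vehicle (SD, n = 3). Ccne2, the cyclin that opens S phase, had 3.78, 5.36 and 4.80 and then 2.33, 2.22 and 2.24. Rpa1, which binds single-stranded DNA, had 16.8, 20.2 and 20.7 and then 12.8, 14.2 and 11.5. Cdca7l, a nuclear partner of MYC, had 8.93, 11.8 and 14.4 and then 6.76, 4.00 and 2.59, with a log2 difference of -1.27 (SE 0.26, limma adjusted p 0.128; -1.01 without replicate 3). Among mitotic genes Kif20a, a kinesin of cytokinesis, had 6.23, 9.43 and 11.9 and then 4.17, 3.16 and 3.50, and Prc1, of the central spindle, had 3.8, 5.01 and 6.36 and then 2.38, 2.0 and 2.37. All of these genes were without overlap. Other proliferation genes were not: Mki67 had 12.8, 20.2 and 20.6 and then 10.1, 21.4 and 20.5. Plk1, a mitotic kinase chosen after its values were seen, had 22.4, 33.6 and 44.1 and then 19.1, 71.7 and 16.0, where replicate 2 was the highest of the 6.

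**Figure D4:**
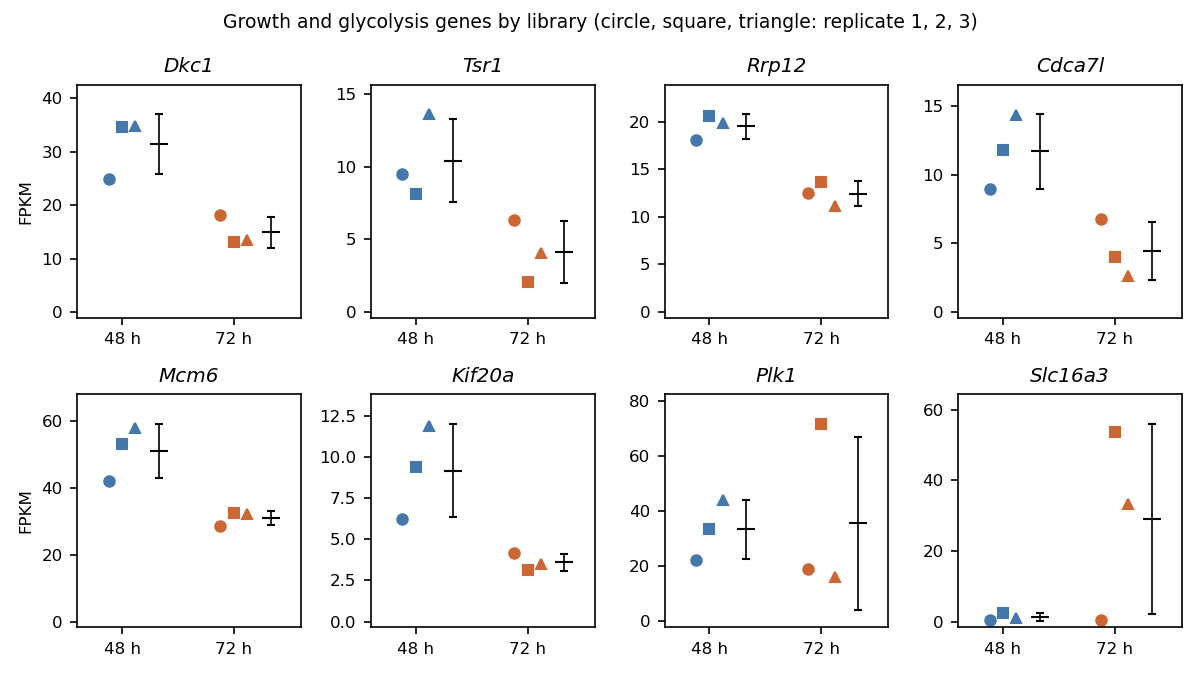
FPKM of 8 growth and glycolysis genes in each library at 48 h (blue) and 72 h (orange), with the mean and SD (n = 3) of each group beside the points; shapes are replicates. Dkc1, Tsr1, Rrp12, Cdca7l, Mcm6 and Kif20a have every point at 72 h below those at 48 h, while in Plk1 replicate 2 at 72 h is the highest point and in Slc16a3 replicate 1 at 72 h stays at the level of 48 h.

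Cytosolic ribosomal protein genes, which mTOR complex 1 governs chiefly through translation, did not share the direction of ribosome biogenesis in the deposited scaling. Of 76 such genes 6 lay above in all 3 libraries at 72 h, against 6.97% of all genes, and none below. The median was 0.52, and it was -0.07 after quantile normalization, so no direction held across the scalings. With replicates 1 and 2 alone at 72 h, 6 lay above and 1 below, against 14.0 and 13.6% of all genes, and the median was 0.30. By library the list stood at 0.04, 0.58 and 0.97 at 72 h. Rpl28 illustrates the split, with 825, 655 and 567 FPKM at 48 h and 827, 1558 and 1759 at 72 h.

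Genes of the mTOR pathway itself differed little. Of 37 tested members of 39, 3 lay above in all 3 libraries at 72 h and 5 below, with a median of -0.10, and these shares are near the backgrounds of 6.97 and 9.45%. When replicate 3 was left out, 4 lay above and 6 below, against 14.0 and 13.6% of all genes, and the median was 0.00. Mtor had 5.25, 4.48 and 5.17 FPKM at 48 h and 6.02, 4.08 and 3.68 at 72 h. Eif4ebp1, which encodes 4EBP1, had 55.4, 65.4 and 61.6 and then 54.3, 95.1 and 86.8. Both overlapped between the times. Grb10, an adaptor that dampens insulin signalling and is an mTOR complex 1 substrate, had 5.98, 15.0 and 22 at 48 h and 3.96, 1.95 and 5.19 at 72 h (log2 difference -1.61, SE 0.51, limma adjusted p 0.211; -1.84 without replicate 3). Mlst8, a subunit of both mTOR complexes, had 4.07, 3.68 and 4.41 and then 3.15, 2.61 and 2.16. These genes had no overlap. The others without overlap, named after their values were seen, were Lamtor1, Lamtor2 and Lamtor4 above, which anchor the complex to the lysosome, and Akt1, Tsc1 and Tsc2 below, which act upstream of it. Ddit4 and Rps6kb2 were higher at 72 h with overlap (limma unadjusted p 0.019 and 0.022). In the fit without replicate 1 at 72 h, treated below, Ddit4, Rps6kb2 and Sesn2 were called higher and no member lower, against 3.05 and 1.62% of all genes.

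Further single genes near the threshold had other roles. Hao2, a peroxisomal hydroxyacid oxidase, had 9.52, 8.75 and 11.2 FPKM at 48 h and 4.57, 2.93 and 1.16 at 72 h (log2 difference -1.58, SE 0.33, limma adjusted p 0.128; -1.21 without replicate 3), beside 11.1 ± 4.45 at 24 h and 2.52 ± 1.09 in vehicle (SD, n = 3). Phlda1, a gene induced by growth factors, had 1.27, 1.52 and 3.96 and then 7.64, 7.82 and 8.13, the narrowest range among the 72 h libraries of the genes in this paragraph. Gch1, the first enzyme of tetrahydrobiopterin synthesis, had 2.92, 2.70 and 2.86 and then 7.18, 4.71 and 10.3. These 3 genes were without overlap. Of 21 tested genes of fetal liver and liver tumour, out of 27 listed, 3 lay below in all libraries at 72 h and 1 above. The shares over all genes were 9.45 and 6.97%. Without replicate 3 there were 4 below and 2 above, against 13.6 and 14.0% of all genes. The list median was -0.01, and -0.07 without replicate 3, so the list as a whole showed no shift. By library it stood at -0.48, 0.19 and 0.13 at 72 h. Those below with all libraries were Gpc3, a cell surface proteoglycan, Igf2bp3, an mRNA-binding protein, and Dlk1, a surface protein of liver progenitors, and the gene above was Spp1, which encodes osteopontin. Dlk1 and Spp1 were named after their values were seen. Spp1 had 2.5, 3.8 and 3.16 FPKM at 48 h and 10.1, 8.06 and 69.4 at 72 h. Gpc3 had 21.4, 40.0 and 23.8 and then 20.6, 4.00 and 2.68, with replicate 1 close to the 48 h range. Igf2bp3 had 3.31, 3.39 and 5.34 and then 2.02, 0.988 and 2.32. Afp, the fetal albumin of liver tumours, overlapped between the times, with 3415, 2402 and 1294 at 48 h and 1828, 1500.1 and 2728 at 72 h.

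Replicate 1 at 72 h also stood apart, and the number of genes called depended on it more than on any other of the 6 libraries. Without it limma called 383 genes higher at 72 h, 3.05% of those tested, and 203 lower, 1.62%, at an adjusted p under 0.05, and replicate 3, rich in blood RNA, then made up 1 of the 2 libraries at 72 h. Of the acute phase list 7 of 28 were called higher in that fit, Orm1, Saa1 and Saa2 among them (adjusted p 0.0377, 0.0287 and 0.0164). Of ribosome biogenesis 2 of 36 were called lower, Dkc1 and Tsr1 (adjusted p 0.0136 and 0.0156). Of the genes of red cells 7 of 10 were called higher, with Hba-a1 at an adjusted p of 0.0111. With both replicates 1 and 3 left out, so that replicate 2 stood alone at 72 h and was taken to vary like the other groups, 61 genes were called.

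Glycolysis and fatty acid oxidation set replicate 1 at 72 h against the other 72 h libraries. The 21 glycolysis genes stood at -0.21, 0.40 and 0.80 at 72 h, with a list median of 0.53 (0.20 without replicate 3). In this list 1 gene, Slc16a1, lay below, against 9.45% of all genes with replicate 3 and 13.6% without it. The 34 genes of fatty acid oxidation and ketogenesis stood at 1.11, -0.62 and -0.95, with a median of -0.09 (0.18 without replicate 3). No gene of it lay above or below in all 3, and 3 lay above without replicate 3, against 14.0% of all genes. Aldoa, the aldolase of glycolysis, had 219, 248 and 223 FPKM at 48 h and 189.6, 809 and 689 at 72 h, and 478 ± 137 (SD, n = 3) in vehicle. Slc16a3, the lactate exporter, had 0.478, 2.49 and 1.04 and then 0.473, 53.7 and 33.3, and 32.3 ± 27.6 (SD, n = 3) in vehicle. Pkm, a pyruvate kinase gene chosen after its values were seen, had 77.6, 121 and 79.8 and then 52.4, 273 and 277. In these 3 genes replicate 1 at 72 h lay at or below the lowest library at 48 h and the other 72 h libraries above all of them. Slc16a1, a transporter of lactate and pyruvate, differed, with 52.0, 80.1 and 76.3 and then 45.0, 38.6 and 27.2. Cpt1a, which brings fatty acids into mitochondria, had 129, 92.5 and 122 at 48 h and 167, 32.7 and 37.6 at 72 h. Acadvl, which starts the oxidation of long chains, had 67.5, 35.7 and 57.1 and then 78.8, 8.62 and 22.9. For both, replicate 1 was the highest of the 6 libraries and the other 72 h libraries lay below all at 48 h. Without replicate 1 the log2 differences of Cpt1a and Acadvl were -1.66 and -1.80 (limma adjusted p 0.0453 and 0.0185), and those of Aldoa and Slc16a3 were 1.70 and 4.30 (0.00439 and 0.00337).

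Other groups were high mainly in replicate 3 at 72 h, the library with blood cell RNA. The 28 tested genes of early response and ERK output stood at 2.30 in it and at 0.17 and -0.07 in the other 72 h libraries, and the median went from 0.95 to 0.12 without it. The 14 tested genes for replication-dependent histones, of 24 in the table, stood at 3.33 in it and at 0.05 and 0.50 in the others, with medians of 1.23 and 0.19. Ier2, an immediate early gene, had 42.5, 26.7 and 27.1 FPKM at 48 h and 34.3, 70.9 and 253 at 72 h, and Zfp36, which speeds the decay of cytokine mRNA, had 14.8, 8.44 and 8.47 and then 19.2, 11.3 and 93.4. Jund, of the AP-1 factors, had 79.5, 60.9 and 51.9 and then 64.4, 155 and 373. Histone gene Hist1h4d had 0.402, 0.558 and 0.708 and then 1.10, 2.27 and 14.3, and Hist1h1e had 0.488, 0.137 and 0.539 and then 1.55, 0.785 and 24.0. Histone genes have close copies among which reads may be shared. The neutrophil genes S100a8 and S100a9 had 842 and 1665 FPKM in this library, beside at most 6.07 and 11.6 in the other 5. The globin gene Hba-a1 had 11.4, 7.20 and 329 at 48 h and 97.5, 1021 and 28106 at 72 h. In contrast 3 of 10 red cell genes tested were above 48 h in all libraries at 72 h, against 6.97% of all genes. Without replicate 3 there were 3 as well, against 14.0% of all genes. Klf1 and Car1 were among them. At 48 h Car1 was under 1 FPKM in every library, and Klf1 reached it in replicate 3 alone. Both therefore passed the filter through the 72 h libraries, so these counts lean upward and are a description. Klf1, a transcription factor, had 0.616, 0.553 and 1.02 and then 1.97, 2.28 and 6.86, and Car1, a carbonic anhydrase, had 0.0687, 0.0212 and 0.688 and then 0.982, 1.86 and 15.7. Neither passed with all libraries or without replicate 3. The part of blood cells in the early response and histone values was not tested.

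The remaining genes fixed for the text overlapped between the times. The mouse Myc entry, which does not measure the human transgene, had 5.76, 2.51 and 2.56 FPKM at 48 h and 7.85, 2.33 and 7.35 at 72 h. Cd274, which encodes the checkpoint ligand PD-L1, had 2.72, 3.81 and 2.0 and then 2.32, 1.42 and 7.88. Cd8a, of cytotoxic T cells, was under the filter, with a mean of 0.162 ± 0.0858 at 48 h and 0.111 ± 0.0315 at 72 h (SD, n = 3). Igf2, a fetal growth factor, had 18.4, 7.30 and 34.0 and then 10.5, 2.24 and 29.5. Apoa4, an apolipoprotein, had 211, 5.00 and 113 and then 1073, 36.9 and 179, with a wide spread within each time.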

How the data were processed

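RNA-seq libraries of 24 tumour samples were deposited as 1 table of FPKM. The authors made these FPKM from reads aligned with STAR 2.5 and counted with HTSeq 0.6.1 against mm9, per the submitters' processing notes; the annotation and the FPKM tool are not given in the sources used here. Of 54532 entries, 27 with a date as name and 102 sharing a name with a more abundant entry were left out, and 54403 remained. In 1588 entries the identifier named another gene, and names were used, since lengths by name made 96.9% of low values whole reads and lengths by identifier 34.0%. In the 6 libraries compared 98.3 to 98.7% of low values (up to 20 reads) lay within 0.02 of a whole number of reads, which gave the depths. These cover counting error only.

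Genes whose FPKM was 1 or more in 2 or more of the 6 libraries were tested on log2(FPKM + 1) with limma 3.58.1 in R 4.3.3 (lmFit, eBayes with trend), two-sided, with Benjamini-Hochberg adjustment over all genes. All 24 libraries in 10 groups entered the fit, with the contrast 72 h minus 48 h. In the libraries of the doxycycline and RMC-4627 groups 3.57 to 4.64% of low values were whole reads, so their depth was not recovered. They share in the estimate of the spread. The same fit was repeated without replicate 3 at 72 h. The script was tested on simulated data. The members and lists were chosen with earlier results of these data known. Lists were described by counts and medians, with no test. Named were up to 12 genes per direction, passing or of smallest p, without overlap between the groups and with a mean of 5 FPKM or more on the higher side; up to 6 list members of smallest p, with and without replicate 3; and in every case Myc, Eif4ebp1, Mtor, Alb, Afp, Mki67, Cd274, Cd8a, S100a8, S100a9, Hba-a1, Igf2 and Apoa4. Unnamed gene models, pseudogenes, Mup genes, small RNAs and antigen receptor segments were left out of naming, and some genes the rule takes are not described. Others are marked as chosen after their values were seen. Alternatives were the pseudocount, filter, scaling, set of libraries, blocks by replicate number and description code, library weights, robust variance and leaving out each library.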

Additional observations from a re-analysis of the deposited data

How the results depend on the processing

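With all libraries, 3 genes passed at a pseudocount of 0.1 and 5 with no filter on low values, and leaving out each of the 6 libraries in turn gave 0 to 586 genes: 586 without replicate 1 at 72 h, 5 without replicate 2 and 1 without replicate 3. No gene passed in limma under the other 10 settings run with all 6 libraries, and 1011 to 2750 genes had an unadjusted p under 0.05 there. The lowest count came from the 6 libraries alone and the highest from the fit without the doxycycline and RMC-4627 libraries. With the replicate number as a block 0 genes passed and 1746 had an unadjusted p under 0.05. Deviations of same-numbered libraries correlated at 0.175, 0.139 and -0.454, so the numbers do not pair the libraries.

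Without replicate 3 at 72 h, 29 genes passed with no filter, 1 lower and none higher at a pseudocount of 0.1 in place of 1 higher and none lower, 0 with an FPKM of 5 or more, 0 with the 5 libraries alone and 0 with the 9 libraries of RMC-6272. Leaving out a further library gave 1 to 61 genes. The replicate block left 1.

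Of the list medians described, quantile normalization reversed oxidative phosphorylation (-0.0571) and cytosolic ribosomal proteins (-0.0726). Leaving out each library gave -0.16 to 0.004 for the mTOR pathway (0.00378 without replicate 3 at 72 h), -0.72 to 0.30 for fatty acid oxidation and 0.48 to 1.34 for the urea cycle and amino acid breakdown. No log2 difference of a single gene printed in the report changed sign under these alternatives. Of the single genes followed through them, 29 passed the threshold without replicate 1 at 72 h. Spp1, given as levels and not followed in this way, passed there as well. Among genes given as levels alone, the difference changed sign when 1 library at 72 h was left out in Mki67, Plk1, Mtor and Cd274 (for example -0.08 to 0.24 for Mki67 without replicate 1, and 0.14 to -0.41 for Cd274 without replicate 3). The cause was not tested. The depth of 17.6 M reads limits low values in replicate 3 at 72 h.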
